A study of Mus musculus with 4 samples.

Results

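Cells that carried microglia genes and genes of blood-derived macrophages in the same barcode made up 99 of the 18045 cells kept from the 4 pools, 68 of 4982 in the female stroke pool and 31 of 4099 in the male stroke pool. They were chosen in the stroke pools by 2 sums of unique molecular identifiers (UMIs, each standing for 1 captured RNA molecule). A member had at least 30 UMIs per 10000 from P2ry12, Tmem119, Siglech, Fcrls, Olfml3 and Selplg, called the microglia score here, and at least 10 per 10000 from Ccr2, Chil3, S100a4, Plac8 and Arg1, called the macrophage score. It also passed the filters on quality, namely 500 or more genes, 1000 or more UMIs and a mitochondrial share of no more than 10%. Cells past the microglia threshold alone numbered 3390 (female stroke) and 3165 (male stroke), cells past the macrophage threshold alone 1055 and 554, and cells past neither 469 and 349. The choice rests on measured RNA, so gene levels of these classes are given as descriptions with no test.

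Microglia are resident macrophages of the brain that arise in the embryo and renew themselves locally. After a stroke, monocytes enter the injured tissue from the blood and turn into macrophages that also clear debris, so that both kinds of phagocyte lie side by side. P2ry12, a purine receptor, and Tmem119, a membrane protein, are used to mark microglia, whereas Ccr2, the receptor for a monocyte-attracting chemokine, and Chil3, a chitinase-like protein, mark the incoming cells. On build mm10, P2ry12 spans chr3:59216272-59262871, Tmem119 chr5:113793729-113800516, Ccr2 chr9:124101950-124113557 and Chil3 chr3:106147554-106167564, and each gene was counted as a whole. A barcode with both sets of genes can come from 1 cell that makes both, from a pair of cells in 1 droplet, or from a cell with free RNA of another.

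All mice carried Tmem119-2A-CreERT2, a tamoxifen-dependent recombinase expressed from the Tmem119 gene, and Ai6, which makes the green protein ZsGreen after recombination. The stroke groups, female and male, had the middle cerebral artery of the right side tied off for good, and the female and male sham groups had the surgery without ligation. The operated hemisphere was taken on day 3. Each group was 1 pool of 4 mice, from which live ZsGreen-positive cells were sorted and sequenced with 10x Genomics 3' v3.1 chemistry; their age was not given in the sources used here. The label therefore depends on the Tmem119 gene, and with 1 pool per group no difference between pools can be tested. The intervals below are 95% intervals and cover counting error only.

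The stroke pools held 5931 and 4944 barcodes with 66072270 and 52733857 UMIs, of which 84.0% and 82.9% passed the filters. The male sham pool had no barcode under 4198 UMIs, against 500 and 501 in the other pools. Any pair of pools shared 4 to 11 barcodes, none of them a member. No doublet caller was applied here, so doublets remain in every class, and UMI depth is given in its place.

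Members made up 1.36% (1.06 to 1.73, exact Clopper-Pearson) of the cells in the female stroke pool and 0.756% (0.514 to 1.07) in the male stroke pool. The same rule took 1 of 4007 cells (0.0250%) in the female sham pool and 13 of 4957 (0.262%, 0.140 to 0.448) in the male sham pool. Among cells past the macrophage threshold, 6.06% (4.73 to 7.61) in the female and 5.30% (3.63 to 7.44) in the male stroke pool were also past the microglia threshold. The cells with neutrophil genes gave 13.5% (7.56 to 21.6) and 6.56% (1.82 to 15.9) on the same measure at shallower depth, with median UMIs of 3164 and 2824 against 13090 and 12948 for cells past the macrophage threshold. Cells with choroid plexus genes gave 10.9% (5.56 to 18.7) and 2.27% (0.0575 to 12.02), at median UMIs of 21319 and 23935. Their limit was far above the 10 UMIs per 10000 used for these genes below. Cells with T and natural killer cell genes gave 1 of 13 and 0 of 10, and cells with neuron genes 0 of 10 and 0 of 8. At these limits the interval of macrophage-gene cells overlapped those of neutrophil-gene and choroid-gene cells in both stroke pools. For female neutrophil-gene cells the overlap was narrow (7.56 against 7.61). At 10 UMIs per 10000 of choroid plexus genes, 90 female and 38 male cells had microglia genes only and 109 and 57 neither set. The choroid plexus share thus depends on the limit.

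The median microglia score of members was 46.7 per 10000 (30.1 to 160) in the female and 61.4 (30.8 to 110) in the male stroke pool, below the 81.6 and 86.0 of cells with microglia genes only. Their median macrophage score was 20.2 (10.1 to 118) and 19.3 (10.1 to 51.0), below the 42.1 and 31.8 of cells with macrophage genes only. Both scores therefore lay between those of the single-marker classes, which the thresholds partly set. A member held a median of 23.5 macrophage-score UMIs (2 to 165) in the female and 18 (2 to 218) in the male stroke pool, and 3 and 2 members had only 1 or 2 such UMIs. Within 20% of the microglia threshold lay 13 members and 14 cells just outside in the female pool, and 5 and 12 in the male pool, with median scores of 32.0 and 28.1, and 33.6 and 25.1. At the macrophage threshold the counts were 6 members and 14 cells outside, and 4 and 8, with median scores of 11.4 and 8.74, and 10.9 and 8.70. The plot of the 2 scores shows no gap at either threshold.

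**Figure D1:**
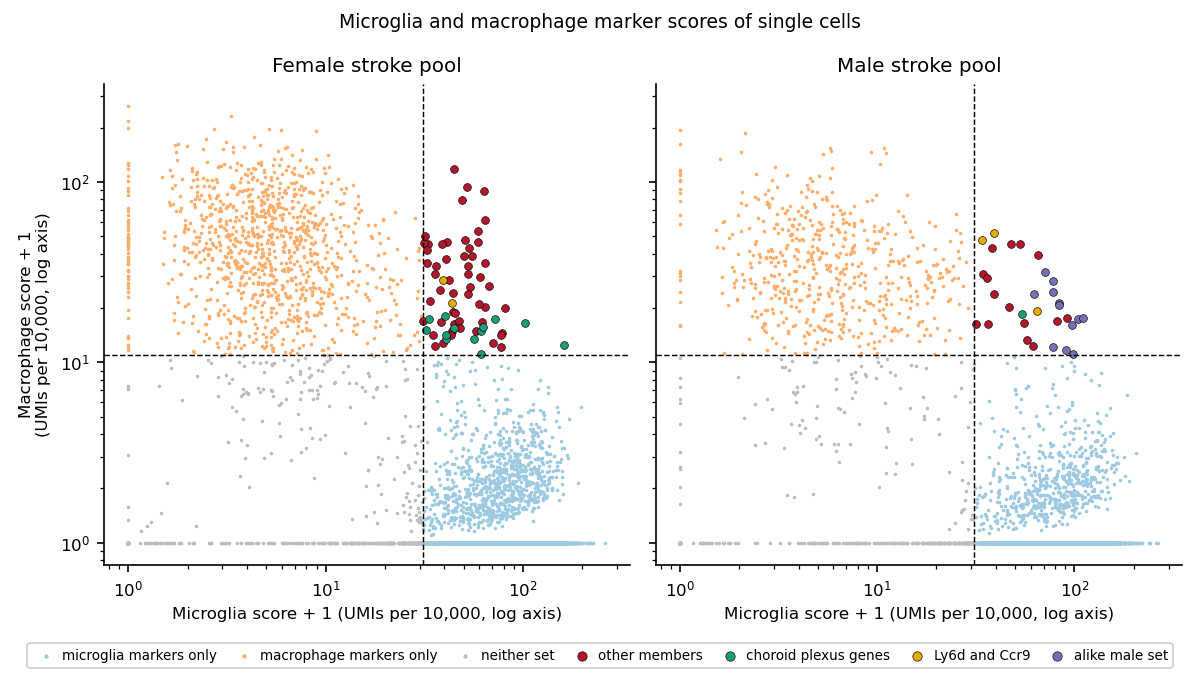
Microglia score plus 1 (x axis) and macrophage score plus 1 (y axis), both in UMIs per 10000 on log axes, for cells of the female and male stroke pools; dashed lines are the thresholds of 30 and 10 and coloured points are members. The 68 and 31 members fill the upper right corner next to 2 dense groups of cells with 1 marker set.

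To gauge counting error in the scores, each cell's UMIs were divided at random into 2 equal parts. Members were chosen on 1 part and read on the other. Of 74 cells chosen in the female stroke pool 50 (67.6%) met the rule again in the unused part, and of 39 in the male stroke pool 21 (53.8%) did. Among cells chosen as having microglia genes only, 0.416% and 0.287% met the full rule in the unused part, and among those with macrophage genes only 0.955% and 0.364%. Pairs of genes outside the scores were also read, with results that differed by pair. Sparc, a matrix protein of microglia, and Lgals3, a galectin of activated macrophages, were both seen in 58 of 68 female members (85.3%) and 26 of 31 male members (83.9%), against 23.6% and 17.5% of cells with microglia genes only and 23.2% and 20.4% of cells with macrophage genes only. Of the 26 male members, 12 were barcodes with nearly the same counts, described below. ZsGreen and Lyz2, a lysozyme gene, were seen together in 85.3% of female and 83.9% of male members. That lay below the 91.3% and 89.4% of cells with microglia genes only and above the 42.0% and 37.5% of cells with macrophage genes only. These shares also depend on the depth of the cells.

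Members were not uniformly deep. The median UMIs per member were 13033 (11405 to 16354) in the female stroke pool, 1.49 times the 8741 of cells with microglia genes only and 0.995 times the 13098 of cells with macrophage genes only. In the male stroke pool the median was 9080 (6515 to 17968), 1.04 times 8755 and 0.698 times 13005. Members ranged from 1130 to 62931 UMIs among females and from 1133 to 56629 among males, and 14 and 4 of them lay below the 10th percentile of cells with microglia genes only (3303 and 3377 UMIs).

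Barcodes with a pair of cells hold the RNA of both, so depth was also read against the sum of the 2 class medians, 21839 and 21760 UMIs. At or above that sum were 16 female members (23.5%) and 8 male members (25.8%), against 11.7% and 11.5% of cells with microglia genes only and 10.9% and 12.996% of cells with macrophage genes only. The share of deep barcodes was thus about 2 times that of either single-marker class in both pools, while most members lay below the sum. The median mitochondrial share was 4.30% and 3.20% in members, 4.96% and 4.56% in cells with microglia genes only, and 2.91% and 3.04% in cells with macrophage genes only.

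Each member was then placed between the single-marker classes by a mixing share, the fraction of its UMIs given to the macrophage-only profile when its counts were fitted as a mixture of the 2 class profiles of its own pool, with the 11 score genes and the mitochondrial genes left out. Cells with microglia genes only had a median of 0 and cells with macrophage genes only a median of 1. Members had a median of 0.452 (0.389 to 0.508) in the female and 0.346 (0.170 to 0.511) in the male stroke pool. Between 0.2 and 0.8 lay 62 of 68 female members (91.2%) and 20 of 31 male members (64.5%), against 3.27% and 3.13% of cells with microglia genes only and 4.45% and 3.07% of cells with macrophage genes only. Below 0.2 lay 4 and 11 members, and above 0.8 lay 2 and 0. Most members thus had mixing shares away from both ends, and 11 male members were near the microglia end. The 2 profiles were built from the single-marker cells themselves, so the values of those classes are partly set by the fit. How well a mixture described a member was not tested. The members with Ly6d and Ccr9 described below also had shares in this range.

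**Figure D2:**
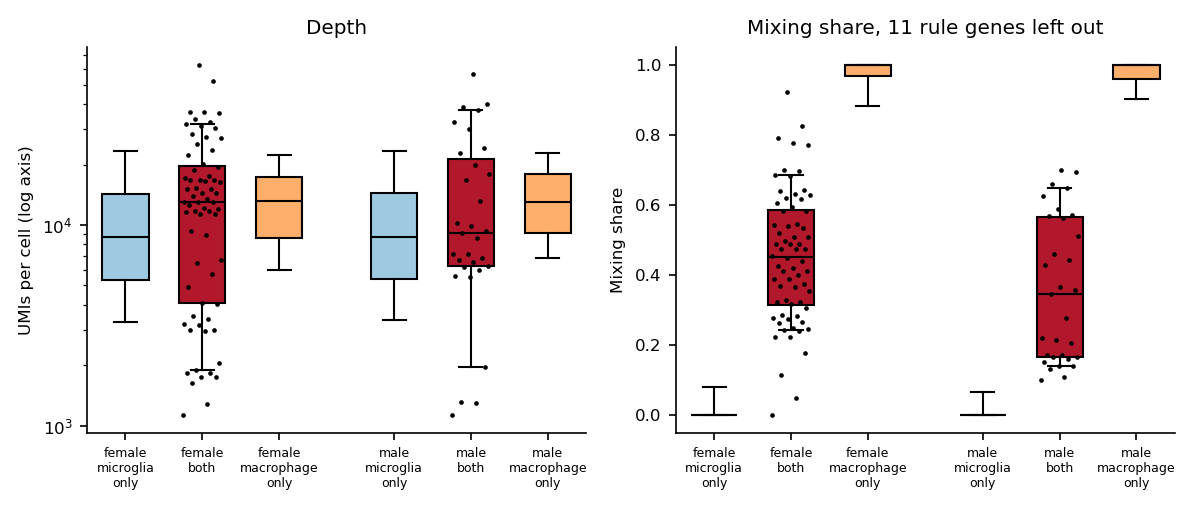
UMIs per cell (log axis) and mixing share (0 is the microglia-only and 1 the macrophage-only profile) by class in the female and male stroke pools; boxes span the quartiles, whiskers the 10th to 90th percentiles, and points are single members. Member depth overlaps both single-marker classes, while the median mixing shares of 0.452 and 0.346 stand between the 0 and 1 of those classes.

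Depth and mixing share together separated the members further. The 62 and 20 members at mixing shares of 0.2 to 0.8 had median UMIs of 13244 and 17327. When their UMIs were divided by the mixing share, both portions reached the 10th percentile of the matching single-marker class in 35 of 62 (56.5%, 43.3 to 69.0) and 11 of 20 (55.0%, 31.5 to 76.9). In the remaining members of that range at least 1 portion fell short of that percentile. The part of paired cells and of free RNA in these members was not tested.

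**Figure D3:**
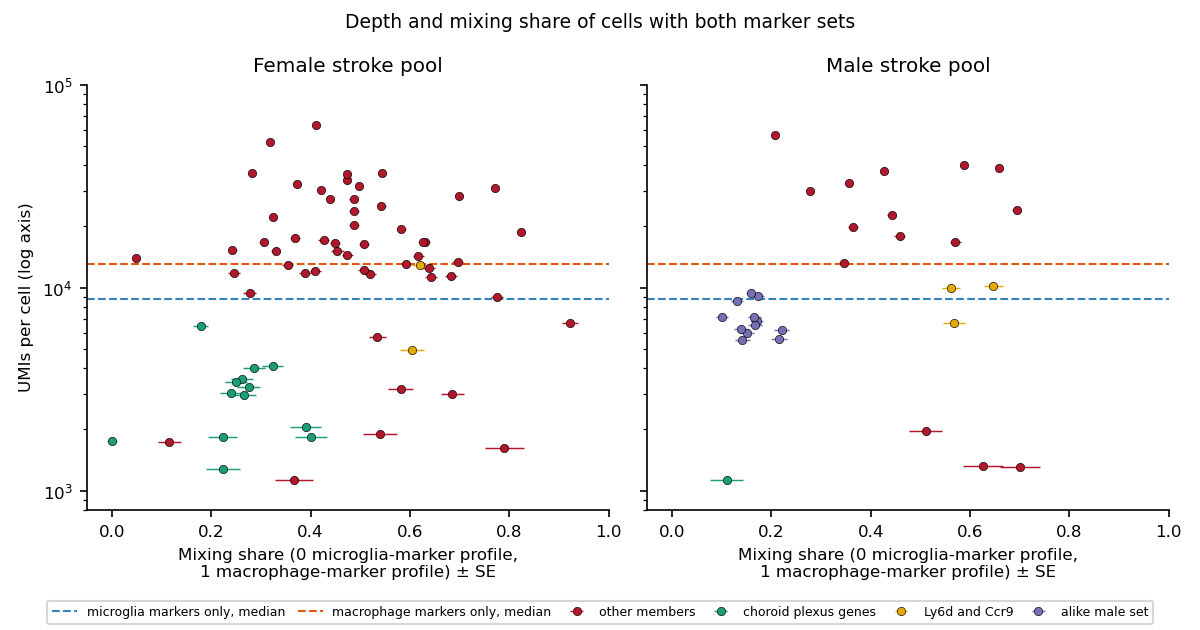
UMIs per member (log axis) against mixing share, with the standard error of the share as bars, for the female and male stroke pools; dashed lines mark the median UMIs of the single-marker classes. Members at shares of 0.2 to 0.8 span the whole depth range, and 11 male members lie under 0.2, 10 of them at 3000 UMIs or more and under 10000.

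In 18 of 99 members (18.2%) the counts were nearly the same as those of another member at the limit used here. For each pair of members with at least 5000 UMIs, the counts of the genes with 10 or more UMIs in the pair were compared by chi-square per degree of freedom, which is about 1 when 2 barcodes differ only by sampling. In the male stroke pool 46 of 351 pairs (13.1%) were under 1.2, against 0.00426% of pairs of cells with microglia genes only and 0.0316% with macrophage genes only. These links joined a set of 12 barcodes and a separate pair of barcodes. In the same pool 4 cells with microglia genes only were under 1.2 with at least 1 of the 12, and 1 of them with 6 or more. In the female stroke pool 2 of 1176 pairs (0.170%) were under 1.2, at 0.997 over 408 genes and 1.12 over 306 genes, against 0.00437% and 0.0134% in the single-marker classes. The limit of 1.2 did not fall at a gap. Female pairs went on at 2, 3, 2, 1 and 2 per bin of 0.1 from 1.2 to 1.7. Male pairs went on at 14, 4 and 4 per bin from 1.2 to 1.5. The count of 18 members thus depends on the limit. These sets were noticed after the values were seen.

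The 12 linked male barcodes held 5503 to 9384 UMIs and differed from one another at 8 or more of the 16 barcode bases. Across the 12 the chi-square per degree of freedom was 1.08 over 520 genes, against 4.00 among 864 cells with microglia genes only and 5.43 among 122 cells with macrophage genes only in the same range of UMIs. Their mixing shares were 0.0998 to 0.220. All 12 held ZsGreen, Olfml3 (2706 CPM, UMIs of a gene per 1000000 UMIs of the set) and Chil3 (724), and H2-Aa was at 0. Within the set S100a4 was at 914, Lgals3 at 1816 and Vim at 1104, and Apoe was at 1175. Counting each linked set once left 19 male members, 0.464% of the pool, with a median mixing share of 0.511 and a median depth of 1.91 times the cells with microglia genes only; in the female pool it left 66 members, 1.32%. Values of male members below include the 12 barcodes unless stated.

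**Figure D4:**
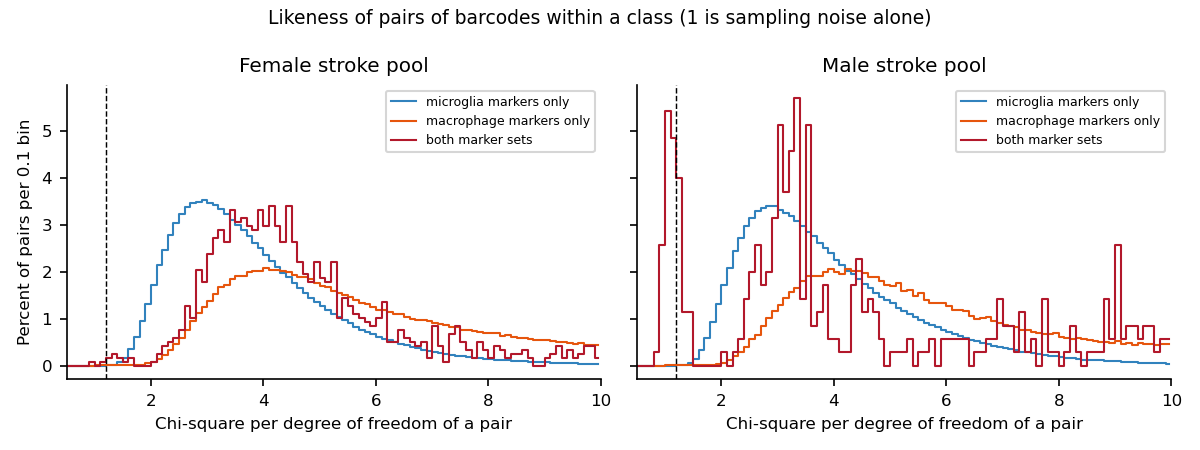
Percent of barcode pairs (y axis) by chi-square per degree of freedom of their counts (x axis, bins of 0.1) in members and in the single-marker classes of each stroke pool; the dashed line is 1.2. Male members show a separate group of pairs between 0.8 and 1.5. Of 351 pairs 46 lie under the line, and the group goes on past it with 14, 4 and 4 pairs per bin.

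Another set of members did not bear out its label. In 2 female members (4902 and 12975 UMIs) and 3 male members (6682, 9891 and 10206 UMIs), both Ly6d, a small surface protein of lymphoid precursors, and Ccr9, a chemokine receptor, were present. Their microglia score rested on Siglech, a lectin found on microglia and also on plasmacytoid dendritic cells, at 13 to 52 UMIs per cell, and on Selplg at 3 to 11. Fcrls, Olfml3 and Tmem119 were each at 0 or 1 UMI. Their macrophage score came from Plac8 at 10 to 36 UMIs, in the 3 male members together with Ccr2 at 4 to 21 UMIs, while Bst2, Irf8 and Tcf4, genes that plasmacytoid dendritic cells express, were at 15 to 65, 10 to 48 and 10 to 28 UMIs. Their mixing shares were 0.605 to 0.619 and 0.562 to 0.647, although their other monocyte and macrophage genes, at medians of 42.5 and 32.4 UMIs per 10000, were below the 129 and 102 of the 53 and 15 members outside all sets. No cell with microglia genes only had both Ly6d and Ccr9, and 1 female cell with macrophage genes only did. These members met the rule and are counted in it, and the set was noticed after the values were seen.

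A further set was marked by genes of the choroid plexus, the epithelium that makes cerebrospinal fluid. In 13 female members (19.1%) and 1 male member (3.23%) those genes reached 10 UMIs per 10000, against 2.65% and 1.201% of cells with microglia genes only. The 13 female members were shallow, at 1279 to 6487 UMIs with a median of 3014. Their level of Ttr, which encodes the thyroid hormone carrier of that epithelium, was 9312 CPM, against 102 in the 53 female members outside all of these sets. Ttr is among the genes that chose this set, so that contrast is set by the choice. The median mixing share of the 13 was 0.262, and their macrophage score rested on a median of 4 UMIs. Shallow cells with microglia genes only held choroid plexus genes too, 90 female and 38 male cells with median UMIs of 2884 and 1719. The part of free RNA in these members was not tested.

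Outside the 12 linked barcodes and the sets with Ly6d and Ccr9 or with choroid plexus genes stood 53 female and 15 male members, 68 of 99. Their median UMIs were 15268 (12954 to 18851) and 22871 (13187 to 37509), which is 1.75 and 2.61 times the median of cells with microglia genes only. At or above the sum of the class medians lay 16 of 53 (30.2%, 18.3 to 44.3) and 8 of 15 (53.3%, 26.6 to 78.7). Their median mixing shares were 0.488 and 0.459, and 49 of 53 and 15 of 15 were between 0.2 and 0.8. Of those, 34 (69.4%) and 11 (73.3%) held portions that both reached the 10th percentile of the matching class. The sets left out here were shallow, so the higher median depth follows in part from leaving them out. The linked pairs of both pools are among these 53 and 15 members. Each of their barcodes was counted, so the intervals treat alike barcodes as separate cells.

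Sparc and Lgals3, neither of them a gene of the rule, were seen together in 49 of these 53 female members (92.5%) and 14 of 15 male members (93.3%). Both single-marker classes were shallower than these members, and a gene is seen more often in a deeper cell.

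The reporter was present in 59 of 68 female members and 28 of 31 male members. Its level was 983 CPM (924 to 1046, exact Poisson) and 1201 (1104 to 1305), against 1724 and 1628 in cells with microglia genes only and 65.7 and 58.1 in cells with macrophage genes only. The observed level was 1.04 and 1.196 times what the mixing shares gave. ZsGreen was itself among the genes fitted, so a ratio near 1 is partly set by the fit. Tmem119, the gene that drives the recombinase, was at 254 and 304 in members, 407 and 438 in cells with microglia genes only, and 34.8 and 29.6 in cells with macrophage genes only. Reporter and driver thus both lay between the classes, nearer to the microglia-only level.

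Gene levels were next compared as UMIs summed over each class of a pool and scaled to CPM, over 13061 genes with at least 20 UMIs in each pool. Of these, 583 (4.46%) were at least 2-fold higher and 1098 (8.41%) at least 2-fold lower in members than in cells with microglia genes only in both pools. Against cells with macrophage genes only, 1240 (9.49%) were higher and 655 (5.01%) lower. Over all genes the median log2 fold was -0.12 in the female and -0.20 in the male pool against cells with microglia genes only, and 0.14 and 0.00 against cells with macrophage genes only. Many were low genes: among those with at least 20 UMIs expected in members the counts were 189, 46, 287 and 49. Fewer genes were compared at that limit, so these counts are not to be set against 13061. The rule used the contrast between the classes, so nothing about the members is read from these shares or counts.

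Microglia genes outside the rule stood at intermediate levels that were closer to the microglia-only class. Of 18 such genes, 14 were at least 2-fold higher in members than in cells with macrophage genes only, and 0 were higher and 1 lower than in cells with microglia genes only. Their median log2 fold against the microglia-only class was -0.52 in the female and -0.66 in the male pool. Sparc was at 1524 CPM (1450 to 1601) in female and 1565 (1454 to 1683) in male members, against 2170 and 2275 in the microglia-only class and 35.2 and 39.6 in the macrophage-only class. Cst3, which encodes the protease inhibitor cystatin C, was at 10659 and 13526, against 18188 and 19339, and 2202 and 2415. Both genes were ordered the same way in both pools.

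Of 9 microglia transcription factor genes, 3 were higher in members than in the macrophage-only class and none was 2-fold apart from the microglia-only class. Sall1, a factor that maintains microglia identity, was at 130 (109 to 154) and 120 (90.6 to 156), against 176 and 171, and 2.90 and 2.56. Among the score genes themselves, Fcrls, an Fc receptor-like protein, was at 1417 and 1812, against 2294 and 2302, and 182 and 279.

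Monocyte and macrophage genes outside the rule, summed as a list, also stood between the classes. They were at 12390 CPM in female and 9418 in male members, against 1528 and 1358 in the microglia-only class and 20624 and 18799 in the macrophage-only class. All 22 were at least 2-fold higher in members than in cells with microglia genes only, with a median log2 fold of 4.51 and 4.53, and 2 were at least 2-fold lower than in cells with macrophage genes only. Lyz2, which encodes lysozyme, was at 6745 (6587 to 6905) and 5746 (5530 to 5967), against 825 and 743, and 11411 and 11028. Ly6c2, a surface protein of inflammatory monocytes, was at 199 and 137, against 1.92 and 0.440, and 263 and 221. Ly6c2 was seen in 42.6% and 58.1% of members. The 2 female and 3 male members with Ly6d and Ccr9 held 54 of its 206 and 37 of its 64 UMIs; without them Ly6c2 was at 149 and 61.3, and in the 53 and 15 members outside all sets at 154 and 39.5. Fn1, which encodes the matrix protein fibronectin, was at 1136 and 906, against 391 and 398, and 1229 and 1093. Thbs1, which encodes thrombospondin, differed more between pools, at 963 and 300, against 25.4 and 15.2, and 1832 and 1346.

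**Figure D5:**
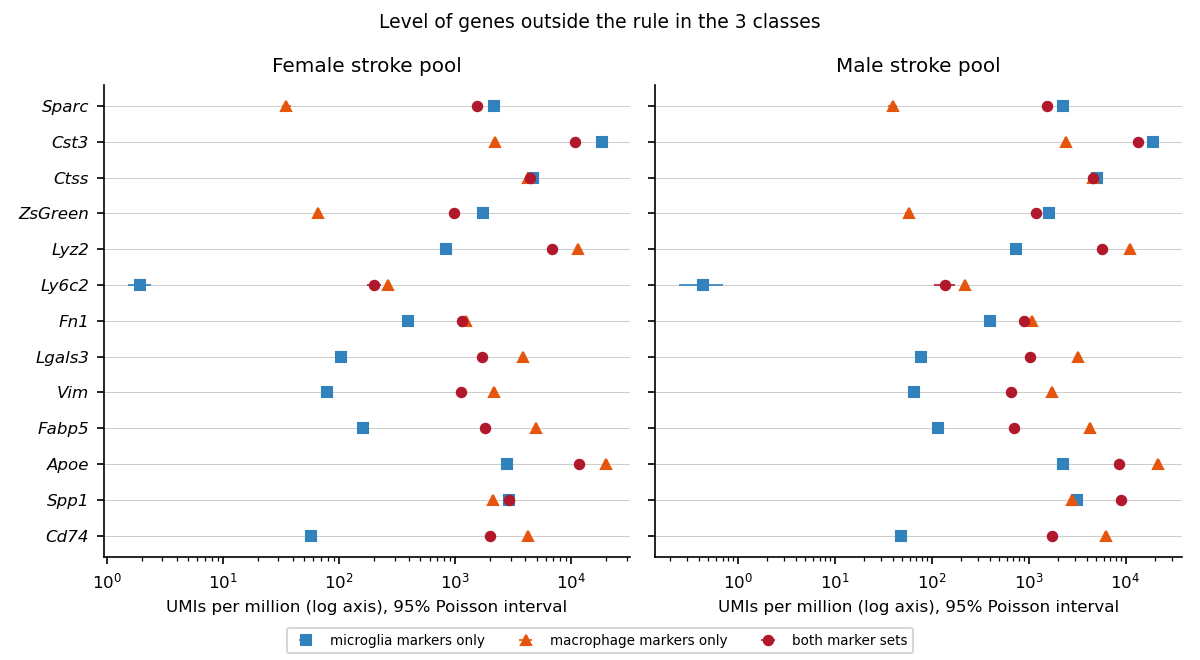
CPM (log axis, 95% Poisson intervals) of 13 genes summed over members, cells with microglia genes only and cells with macrophage genes only in each stroke pool. Members stand between the other 2 classes for Sparc (1524 and 1565), Lyz2 (6745 and 5746) and Lgals3 (1688 and 1047).

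Of the markers given for these cells, Lgals3 was at 1688 CPM (1610 to 1769) in female members, against 104 and 3810 in the microglia-only and macrophage-only classes, a log2 fold of 4.02 and -1.17. In male members it was at 1047 (956 to 1144), against 78.5 and 3238, a log2 fold of 3.74 and -1.63. Vim, which encodes the filament protein vimentin, was at 1112 and 666, against 79.4 and 66.6, and 2156 and 1732. Fabp5, a fatty acid carrier, was at 1814 and 713, against 160 and 116, and 4982 and 4352. Its UMIs were unevenly spread. Of the 53 female members outside all sets 39 held any, with a median of 5 UMIs, and 1 held 418 of 1827. Of the 15 such male members 13 held any, with a median of 6 UMIs, and 1 held 85 of 278. S100a4, a calcium-binding protein that the rule also used, was at 643 and 724, against 20.8 and 12.9, and 1551 and 1317. As class sums, these 4 genes were thus at neither class's level. Lgals3, Vim and Fabp5 were each lower in male than in female members, a difference that 1 pool per sex leaves without a test.

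Of 16 cytoskeleton, S100 and annexin genes, 11 were higher in members than in cells with microglia genes only and 4 lower than in cells with macrophage genes only. S100a6, a relative of S100a4, was at 750 and 730, against 11.6 and 5.31, and 1849 and 1509. Of 18 genes of tissue repair and iron handling, 12 were higher than in cells with microglia genes only and 2 lower than in cells with macrophage genes only. Fth1, the heavy chain of the iron store ferritin, was at 11976 and 9729, against 4933 and 4815, and 21672 and 18791. Among 10 macrophage transcription factor genes, 4 were higher than in the microglia-only class and 2 lower than in the macrophage-only class.

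Lipid and phagocyte genes gave no single direction. Of 26, 8 were higher and 2 lower than in cells with microglia genes only, and 6 were higher and 6 lower than in cells with macrophage genes only. Apoe, the lipid carrier apolipoprotein E, was at 11627 (11421 to 11837) and 8611 (8347 to 8881), against 2763 and 2242, and 19844 and 21562. Ctsd, a lysosomal protease, was at 8651 and 9429, against 11787 and 12638, and 5521 and 5646. Spp1, which encodes osteopontin, was at 2882 and 8979, but 1 female member gave 77.3% and 1 male member 55.0% of those UMIs, so neither value describes the members as a group.

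Antigen presentation genes were unevenly spread. Of 7 MHC class II genes, 5 were higher in members than in cells with microglia genes only and 4 lower than in cells with macrophage genes only. Cd74, the chain that guides MHC class II molecules, was at 1976 and 1743, against 57.5 and 48.3, and 4221 and 6236. It was seen in 77.9% and 87.1% of members, yet 1 male member held 56.5% of the Cd74 UMIs and 77.2% of those of H2-Eb1. Of 12 chemokine genes, 4 were higher and 2 lower than in the microglia-only class, and 2 higher and 3 lower than in the macrophage-only class. A single male member gave all 266 UMIs of Cxcl10, an interferon-induced chemokine, and single members gave 52.8% and 68.2% of those of Ccl12.

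Proliferation genes were below the microglia-only class. Of 15 cell cycle genes, 8 were at least 2-fold lower in members than in cells with microglia genes only, with a median log2 fold of -1.49 and -1.48, and 7 were higher than in cells with macrophage genes only. Mki67, a nuclear protein of dividing cells, was at 83.9 (67.2 to 103) and 21.4 (10.3 to 39.4), against 305 and 252, and 11.7 and 13.3. Top2a, a topoisomerase of dividing cells, was at 92.6 and 32.1, against 263 and 220, and 9.46 and 15.9, with 44.8% and 86.7% of its UMIs from 1 member. Of 14 interferon genes 1 was higher than the microglia-only and 1 than the macrophage-only class, of 12 glycolysis and hypoxia genes 1 was higher than the microglia-only class, and of 10 immediate early genes 1 was higher than the macrophage-only class.

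To place whole profiles, genes with at least a 4-fold difference between the single-marker classes in both pools were set on a scale from 0, the microglia-only level, to 1, the macrophage-only level. The 199 genes higher in the microglia-only class had a median position of 0.420 in female and 0.488 in male members. The 158 genes higher in the macrophage-only class had medians of 0.499 and 0.379. Of these 158 genes none in the female and 1 in the male pool was above the macrophage-only level.

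Against a level computed from each member's mixing share, 4 of 3380 genes (0.118%) were at least 1.5-fold above it in both pools and 24 (0.710%) at least 1.5-fold below. The 4 were Ccr2 and Chil3, which the rule used, and Ly6c2 and Cybb, a subunit of the phagocyte oxidase. Ly6c2 was 1.59 and 1.56 times the mixture level, and Cybb was 1.67 and 1.54 times. Without the members that held Ly6d and Ccr9, Ly6c2 was 1.203 and 0.720 times and Cybb 1.64 and 1.14 times, so neither stayed 1.5-fold above in the male pool. Among the 24 below were Mki67 at 0.502 and 0.136 times, and S100a8 and S100a9, calcium-binding proteins of neutrophils, at 0.0824 and 0.0533 times and at 0.0757 and 0 times.

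Levels above both single-marker classes by 1.5-fold in both pools were seen for 125 of 13061 genes (0.957%), and below both for 582 (4.46%). Among the smaller number of genes with at least 20 UMIs expected in members, 1 was above and 5 were below. Ly6d and Ccr9 led the genes above, at 100.3 and 53.5 and at 69.4 and 77.1 CPM, and both were at 0 in the 68 members outside the sets described. Without the 5 members that held both genes, these 2 and 6 further named genes (Cd8b1, Traf4, Cmah, Sla2, Pdzd4 and Chdh) turned to the opposite direction in at least 1 pool.

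Of the marker lists for other cell types, those of the choroid plexus and of border macrophages were reached by some members. No member reached the limits set for neutrophil, T and natural killer, B, neuron, oligodendrocyte, astrocyte, endothelial or red cell genes, or for the dendritic list, which lacks the genes seen with Ly6d and Ccr9 above. Of 8 T and natural killer cell genes 7 were at 0 in female and 5 in male members, and all 4 hemoglobin genes were at 0 in both. Genes of border macrophages, which line the brain's surfaces and vessels, reached 10 UMIs per 10000 in 13 female (19.1%) and 2 male members (6.45%), against 22.6% and 31.1% of cells with macrophage genes only and 0.324% and 0.284% of cells with microglia genes only. The 2 male members were the linked pair described above, whose counts differed by little more than sampling. Of the 6 genes, Lyve1 and Cd163 were at 0 in female members, and Pf4, a platelet-type chemokine, was at 617 and 390. The linked pair held 83 and 64 of the 181 Pf4 UMIs in the 15 male members outside all sets.

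The 14 sham cells that met the rule held no UMI of Chil3 or Arg1. In the 13 male sham cells Ccr2 was seen in 12, S100a4 in 12 and Plac8 in 7, while Chil3 and Arg1 had 0 UMIs. Their Cd74 level was 16457 CPM, against 1976 and 1743 in the stroke members, and Fabp5 had 1 UMI in all. Their median UMIs were 10424 and their median mixing share, fitted to the profiles of the male stroke pool, was 0.374. The female sham cell held 62 UMIs of Ccr2, 4 of S100a4 and none of Chil3, Plac8 or Arg1, with 522 of Cd74. No sham cell thus showed the Chil3 and Arg1 UMIs that 63.2% and 48.5% of female and 54.8% and 64.5% of male stroke members held.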

How the data were processed

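Single-cell RNA counts from 4 pools of sorted brain cells were used, 1 pool per group, with 29581392 to 66072270 UMIs per pool. The deposited matrices hold whole-number counts of UMIs per gene and barcode, and the authors had called cells before deposit. Per the submitters' processing notes the reads were processed with Cell Ranger 7.1.0 on build mm10, but the version is cellranger 6.1.2 per the file headers. The counting of intronic reads was not stated in what was read here, and unspliced RNA, if included, would raise the level of genes with long introns.

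The members and gene lists were chosen with earlier results of these data known. Cells needed at least 500 genes, 1000 UMIs and at most 10% mitochondrial UMIs. Class sums of UMIs were divided by the class total to give CPM, and genes with at least 20 UMIs over the 3 classes in each pool were compared. A gene was counted at a 2-fold difference in the same direction in both stroke pools, or at 1.5-fold beyond both classes. Profiles for the mixing share had 0.5 UMIs added per gene. The fit was tested on simulated data, 36 settings of 50 cells with 1500 to 10000 UMIs, with a largest mean error of 0.00955 and a largest SD of 0.0355.

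Named genes were the rule genes, the given markers, ZsGreen, up to 4 genes of each list with the most UMIs and up to 2 with the largest fold, the 10 furthest above and below both classes, and the 10 with the largest fold over each class. Genes named outside this rule (Tcf4, Bst2, Ttr, Cybb, S100a8, S100a9) were chosen after their values were seen. No test was run between classes or pools. Alternatives were thresholds, quality filters, rule genes, scaling, random division of UMIs and sets of members left out. Python 3.11.15, numpy 2.4.6, scipy 1.17.1 and pandas 2.3.3 were used.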

Additional observations from a re-analysis of the deposited data

How the results depend on the processing

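Of the shares, depth ratios, mixing shares and gene counts under the alternatives, 143 stayed close to those reported and 35 moved. At a macrophage threshold of 20 the members were 0.703% and 0.342% of the female and male stroke pools, with 1014 genes lower than in the macrophage-only class and 973 below both classes. At a microglia threshold of 60 they were 0.341% and 0.415%, with a female mixing share of 0.319, 1918 genes lower than the microglia-only and 1831 lower than the macrophage-only class, 232 above both and 1675 below both. Without S100a4 in the rule the female share was 0.984%, and with cells thinned to 3000 UMIs the male share was 1.12%. At most 5% mitochondrial UMIs gave a female depth ratio to microglia-only cells of 1.98 and 82 genes above both classes. In another alternative cells of every class with 3 or more cell cycle UMIs were left out, a limit that deep cells pass more easily. The depth ratios to the remaining microglia-only cells then went from above 1 to 0.415 and 0.354, from 11 and 4 members. Profiles from cells under that limit gave a female mixing share of 0.542.

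Averaging per-cell values gave 1713 genes lower than the microglia-only class and 884 below both. Without a filter on low counts 4704 and 1974 genes were lower than the microglia-only and macrophage-only class, 191 above both and 1587 below both, and a 2-fold limit left 45 above both. Of the alternatives chosen after seeing the data, at least 20 expected UMIs also reduced the number of genes compared. It left 189 genes higher and 46 lower than the microglia-only class, and 287 higher and 49 lower than the macrophage-only class. It left 1 above both and 5 below both. Counting linked barcodes once gave a male share of 0.464%. Leaving out all 3 sets gave 1.02% and 0.366%, and a male depth ratio of 2.61. Values of the rule genes, ZsGreen, Lgals3, Vim and Fabp5 stayed close in 354 cases and moved in 126. Among all 116 named genes, 55 were counted at 2-fold against the microglia-only class and 42 against the macrophage-only class. At a microglia threshold of 60, 16 and 14 of these were no longer counted, with 14 and 10 opposite in a pool. At most 5% mitochondrial UMIs gave 12 and 11, with 10 and 7 opposite. At least 3000 UMIs per cell gave 0 and 0, with 0 opposite. No paired analysis was possible because the labels give no replicate numbers and each group is 1 pool. Levels of a few CPM rest on single molecules at this number of members.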
